A study of Sparus aurata with 6 samples.

Results

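In the mid-anterior intestine of gilthead seabream (*Sparus aurata*), 117 transcripts were measured by 2 or more probes that all read lower on the EOs-supplemented diet than on the control diet. They were chosen by a rule from 5110 transcripts that had at least 2 usable probes, which puts their share at 2.29%. A transcript here is an expressed sequence tag (EST, a read of a complementary DNA clone) or a contig assembled from such tags. The array holds 28793 probes and 15156 such names. Even with no filter on dim probes, only 6761 names had 2 or more usable probes. The rule took each probe's log2 intensity after quantile normalization, which gives all arrays the same distribution of intensities, and kept the probes that were well above background on every spot of all 6 arrays. It then asked that, on each kept probe, the highest pool on the EOs-supplemented diet stood below the lowest pool on the control diet, and that the mean difference over the probes was -0.58 or less on the log2 scale, a fold of 1.49 or more. The difference between diets therefore chose these transcripts, and it is described below without a test.

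The fish were juveniles of 155 g that had been fed for 65 days either a basal diet without essential oils (control) or the same diet with 0.5% of an additive of microencapsulated synthetic essential oils (EOs), namely garlic, carvacrol and thymol. RNA of individual fish was combined into 3 pools per diet, each of 4 fish, and each pool was read on 1 array of 1 colour. The feeding trial ran in triplicate tanks, and the labels do not say which tank a pool came from, so that the spread between pools is the only error given here and the number of arrays limits its precision. A pool averages over its fish, so that a transcript low in a few fish cannot be told apart from one slightly low in all, nor fewer cells of a type from less RNA per cell.

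The intestine of a fish absorbs nutrients through its epithelium and is at the same time a mucosal immune barrier, where epithelial cells, mucus-secreting goblet cells and leukocytes meet the feed and the resident microbes. Garlic oil is rich in organosulfur compounds. Carvacrol and thymol are phenolic monoterpenes that differ only in the position of the hydroxyl group on the ring, and both are known for their antimicrobial action. The names on the array are those of clones and contigs, and 0 of the 15156 names matched any of 32006 annotated genes (assembly fSpaAur1.1), so that the transcripts are given by these names, without a gene or a role, and neither the tissue nor any cell type could be checked against marker genes. No probe sequence is printed, since none was in the files used here.

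The arrays were close to one another, with correlations of 0.958 to 0.984 between any pair over the 5110 transcripts. On the control diet 77.5 to 80.2% of the spots were well above background, against 78.0, 89.3 and 88.1% in pools 1, 2 and 3 of the EOs-supplemented diet, and the 75th percentile of the intensity ranged from 1535 in control pool 3 to 2127 in EOs pool 3. No spot was saturated.

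Over the 117 transcripts the mean difference, EOs minus control, ranged from -2.36 to -0.58, with a median of -0.82 and quartiles of -1.05 and -0.71. The median corresponds to a 1.77-fold lower level on the EOs-supplemented diet. Only 2 transcripts had a difference of -2 or less, 4 lay between -2 and -1.5, 26 between -1.5 and -1, 45 between -1 and -0.75, and 40 between -0.75 and the limit of -0.58. Most of the set thus lay close to the limit that defines it. The median difference of all 5110 transcripts was -0.01, and 51.3% of them were below 0. The same rule turned the other way, with every probe higher on the EOs-supplemented diet by a mean of 0.58 or more, was met by 76 transcripts (1.49%). This split depended on the scaling. With each array set to its 75th percentile, the scaling the paper used, 72 transcripts (1.41%) met the rule and 151 its mirror image. With each array set to its median the counts were 241 and 44. In limma, fitted to all 5110 transcripts, 0 of the members and 0 transcripts in all were lower at an adjusted p under 0.05. At an unadjusted p under 0.05, 415 (8.12%) were lower and 281 higher. With the 75th percentile scaling 314 were lower and 513 higher. The methods' t-test gave 0 and 369.

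**Figure D1:**
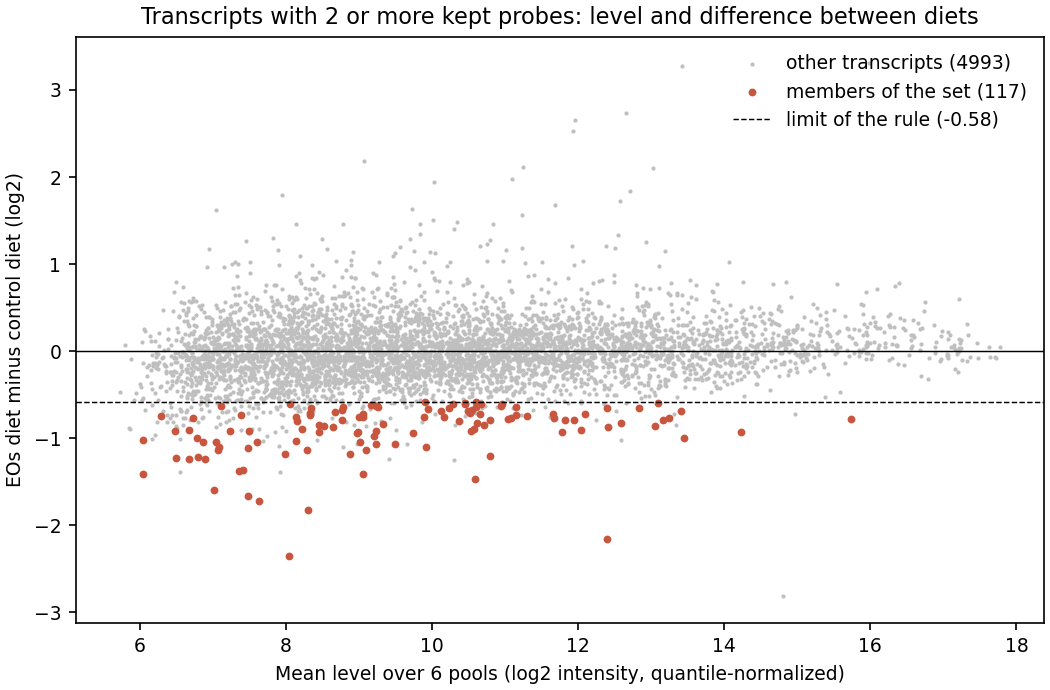
Mean level over the 6 pools (x axis, log2 intensity after quantile normalization) and difference between diets (y axis, EOs minus control, log2) of the 5110 transcripts with 2 or more kept probes, with the 117 chosen transcripts in red and the limit of -0.58 as a dashed line. The red points reach down to -2.36 and lie at levels from 6.04 to 15.74.

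The difference was largest for Seabream_2006-01-03-CL3946Contig1, whose levels were 9.95, 9.45 and 8.28 in control pools 1, 2 and 3 and 6.48, 6.67 and 7.45 in EOs pools 1, 2 and 3. The means of the control and EOs pools were 9.22 ± 0.86 and 6.87 ± 0.52 (SD, n = 3 pools each), a 5.12-fold difference. The diets were 0.82 apart at their nearest pools, control pool 3 and EOs pool 3. Before any scaling between arrays these pools were in the opposite order, with intensities of 196 and 218.

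Contig2962 was second, at 14.11, 13.98 and 12.31 on the control diet and 11.47, 10.97 and 11.50 on the EOs-supplemented diet. Its means were 13.47 ± 1.00 and 11.32 ± 0.30 (SD, n = 3 pools each), a 4.44-fold difference. It was the brightest of the 6 largest differences, and its unscaled intensities, 17709, 17132 and 4247 against 2968, 2190 and 3102, kept the diets apart. Control pool 3 stood well below the other control pools here too, and the 3 probes of the contig all showed it, at 12.52, 11.99 and 12.43 in that pool against 13.68 to 14.32 in control pools 1 and 2.

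The EST cDN02P0002N03.F.ab1 had levels of 9.57, 9.34 and 8.72 on the control diet and 6.76, 7.46 and 7.93 on the EOs-supplemented diet, a difference of -1.82. Seabream_2006-01-03-CL1597Contig1 was at 8.57, 7.97 and 8.92 against 6.98, 6.31 and 7.01, a difference of -1.72. The diets were nearly 1 log2 unit apart at their nearest pools in the latter, with a gap of 0.96, and 0.79 apart in the former. For cDN01P0004P12.F.ab1 the levels were 7.84, 8.60 and 8.47 on the control diet and 6.82, 7.06 and 6.07 on the EOs-supplemented diet, and for cDN12P0001J18.F.ab1 7.86, 7.47 and 8.09 against 6.11, 5.51 and 7.01. Their differences were -1.66 and -1.60. Which pool was lowest differed between these transcripts: it was EOs pool 1 for cDN02P0002N03.F.ab1, EOs pool 3 for cDN01P0004P12.F.ab1, and EOs pool 2 for the other two.

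The widest gap between the diets belonged to Seabream_2006-01-03-CL671Contig1, with 11.52, 11.30 and 11.13 on the control diet and 9.92, 9.59 and 10.05 on the EOs-supplemented diet. Its lowest control pool was 1.08 above its highest EOs pool, and its means were 11.32 ± 0.19 and 9.85 ± 0.24 (SD, n = 3 pools each), a 2.76-fold difference. The EST cDN13P0001F22.F.ab1 was the other one with a gap over 1, 1.03, at 8.21, 7.97 and 8.09 against 6.63, 6.59 and 6.94. In both of these the pools of a diet lay close together, so that the gap made up most of the difference of -1.46 and -1.37. With the 75th percentile scaling these differences were -1.41 and -0.96. Before any scaling the nearest pools were control pool 3 and EOs pool 3 in each. Their intensities were 1812 and 1188 for Seabream_2006-01-03-CL671Contig1, and 168 and 156 for cDN13P0001F22.F.ab1.

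Seabream_2006-01-03-CL5127Contig1, at 9.87, 9.52 and 9.88 against 8.69, 7.99 and 8.37, and Seabream_2006-01-03-CL3134Contig1, at 7.20, 6.28 and 6.76 against 5.81, 4.24 and 5.98, had the same difference of -1.41 on the quantile scale, with unequal spread. The SD over the EOs pools was 0.35 in the former and 0.96 in the latter, where EOs pool 2 stood apart below the other two. With the 75th percentile scaling their differences were -1.22 and -0.72, and the latter missed the rule. Before any scaling the latter had an intensity of 55.6 in control pool 3, below EOs pools 1 and 3 (61.3 and 83.9). In Mackenzie-051508-Contig308 (7.86, 7.10 and 7.26 against 6.85, 5.56 and 6.16) and in cDN05P0005C05.F.ab1 (7.16, 6.52 and 7.66 against 6.33, 5.15 and 6.17) EOs pool 2 was again the lowest. Their gaps were 0.25 and 0.19, so that the nearest pools of both diets almost met. The 3 others of the 15 largest differences, cDN07P0006H22.F.ab1 (-1.37), cDN04P0004H01.F.ab1 (-1.24) and cDN02P0002J10.F.ab1 (-1.24), had control means between 7.29 and 8.04.

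**Figure D2:**
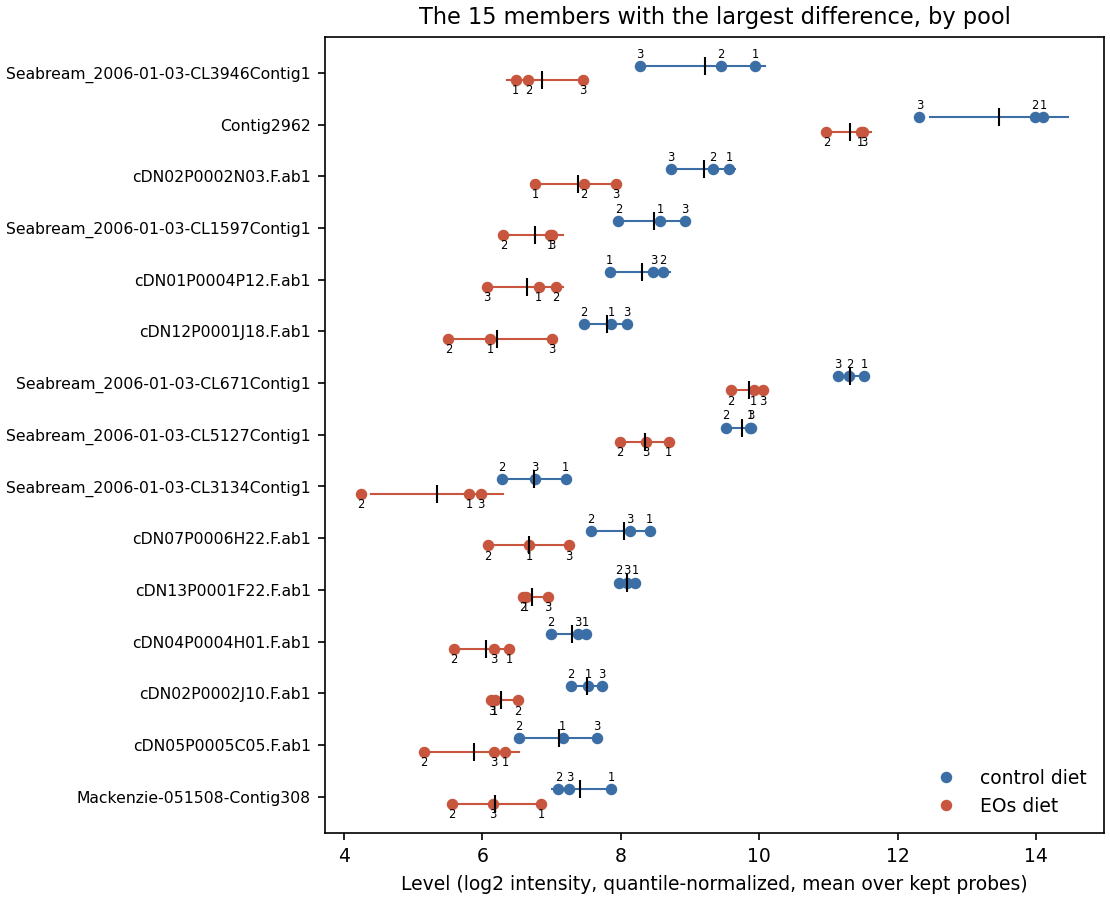
Level (x axis, log2 intensity after quantile normalization, mean over kept probes) of the 15 transcripts with the largest difference, 1 point per pool with its number beside it, control diet in blue and EOs-supplemented diet in red, with the mean as a black tick and a line of 1 SD to each side (n = 3 pools). No red point reaches a blue one of the same transcript, and the pools lie nearest in cDN05P0005C05.F.ab1, with a gap of 0.19.

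Bright transcripts were also in the set. Those with the highest control levels, named here, had smaller differences than the transcripts described above. Their spread was unequal, with a control SD from 0.063 in Seabream_2006-01-03-CL98Contig1 to 0.42 in Contig3555 (n = 3 pools each). The highest level was that of Seabream_2006-01-03-CL98Contig1, at 16.05, 16.17 and 16.15 on the control diet and 15.34, 15.33 and 15.37 on the EOs-supplemented diet. The difference was -0.78 (1.72-fold), beside SDs of 0.063 and 0.025 (n = 3 pools each) on the quantile scale. Before any scaling between arrays its intensities were 70125, 81805 and 66865 against 44183, 44246 and 35981. With the 75th percentile scaling the difference was -1.01. Contig3555 followed, at 14.95, 14.91 and 14.20 against 13.61, 13.77 and 13.91, and Contig3458, at 14.03, 14.05 and 13.77 against 12.82, 12.93 and 13.11, had a difference of -0.998. SCT756_D04_T3_JP1_1_D4_026.ab1 (13.97, 13.82 and 13.45 against 12.88, 13.02 and 13.28) and Contig2753 (13.90, 13.70 and 13.28 against 12.94, 12.56 and 13.07) had control pool 3 as their lowest control pool, with gaps of 0.17 and 0.21.

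The 32 transcripts with a difference of -1 or less had a median control level of 8.40, against 10.55 for the 85 others. Their spread between pools was also wider, with a median SD of 0.38 on the control diet and 0.45 on the EOs-supplemented diet, against 0.22 and 0.19. On the quantile scale, large differences in the set were thus mostly measured on dim and more variable transcripts. The demand of no overlap admits wide spread only beside a large difference, so that the rule itself favours this link with spread. The link with level depended on the scaling. In the lower 5 of 10 level classes of all transcripts, the members had a median difference of -0.92, against -0.76 in the upper 5. With the 75th percentile scaling these medians were -0.64 and -0.76. Over the whole set the level ranged from 6.04 to 15.74 with a median of 9.23, against a median of 9.91 for all 5110 transcripts, and the median SDs of 0.26 (control) and 0.24 (EOs) stood beside 0.23 and 0.19 for all.

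The gap between the nearest pools of the diets ranged from 0.05 to 1.08 with a median of 0.37, and it was wider than the SDs of both diets in 63 of the 117 transcripts. The narrowest was that of Contig1484, at 8.93, 9.50 and 10.65 on the control diet and 8.88, 8.81 and 8.64 on the EOs-supplemented diet. Its EOs pools lay close together (SD 0.12), and control pool 3 stood apart above the other control pools (SD 0.88), beside a difference of -0.92. The limit of -0.58 fell in the middle of a dense range: Contig2072 (-0.59), Contig1610 (-0.58) and Contig2236 (-0.58) were the last inside it, and Seabream_2006-01-03-CL3639Contig1 (-0.57), cDN09P0006E09.F.ab1 (-0.57) and Contig2970 (-0.56), which had no overlap on any probe either, were the first outside. Contig2236, at 10.86, 10.95 and 10.88 against 10.47, 10.31 and 10.17, had a control SD of 0.05.

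In all, 226 transcripts (4.42%) had every kept probe lower without overlap, of which 109 lay above the limit of -0.58, and 140 (2.74%) had every kept probe higher without overlap. Another 138 transcripts reached the limit but had at least 1 probe on which the diets overlapped, so that 255 (4.99%) had a mean difference of -0.58 or less, beside 239 (4.68%) with one of 0.58 or more. These 138 had more spread between pools than the set, with a median SD of 0.44 on the control diet and 0.34 on the EOs-supplemented diet. The demand of no overlap, which they failed, favours such a contrast. In 67 of them the mean over the probes did not overlap between diets, and in 71 it did.

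Each of the 117 transcripts was measured by several probes. There were 2 kept probes for 16 of them, 3 for 100 and 4 for 1, shares of 13.7, 85.5 and 0.855%, beside 11.5, 87.4 and 1.15% among all 5110 transcripts. This made 336 kept probes, of which 254 were printed once, 81 in 2 spots and 1 in 15 spots. The probes of a transcript are read on the same arrays from the same RNA and are not replicates of the diets. Of single kept probes on the array, 2345 of 20708 (11.3%) were lower without overlap and 1612 (7.78%) higher.

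The rule asked all probes of a transcript to go the same way, and their differences are given as a description. The range of the difference over the probes of a transcript had a median of 0.14, beside 0.18 for all 5110 transcripts, and it was under 0.25 in 91 of the 117 (77.8%, beside 66.3%). The range of their level had a median of 0.44, beside 0.64, was over 1 in 28 transcripts and reached 3.58 in Contig1605. There the dimmest probe, at a level of 6.42, had a difference of -0.95, and the other two, at 10.00 and 9.89, had -0.55 and -0.53. Of the 336 probes, 312 were at -0.58 or less by themselves, and in 98 transcripts every probe was. In Contig1639 the 3 probes stood at -0.87, -0.76 and -0.75, and in Contig1610 at -0.72, -0.56 and -0.47.

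The transcript with the most probes was cDN01P0005E06.F.ab1, at 7.51, 7.63 and 7.77 on the control diet and 6.86, 6.69 and 5.94 on the EOs-supplemented diet. Its 4 probes had differences of -1.23, -1.15, -1.13 and -1.05, and the one at -1.13 was the probe printed in 15 spots. All 4 probes had EOs pool 3 as the lowest pool, between 5.59 and 6.16. Where a probe of the 117 transcripts had 2 spots, these lay a median of 0.10 apart on the same array (95% within 0.37, at most 1.55, over 486 pairs).

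The array held 352 probes for these 117 transcripts, of which 14, each of a different transcript, were left out by the filter on background and 2 had a missing value on 1 array. The filter itself moves with the difference, since 8 of the 14 were well above background in all control pools and missed it in an EOs pool, so that their direction is a description only. Of these 14 probes 11 were lower on the EOs-supplemented diet, 10 of them without overlap, and 3 were higher, none without overlap. Among the 504 left-out probes of all 5110 transcripts 54.2% were lower and 9.33% lower without overlap. The differences of the 14 probes ranged from -3.18 to 1.35 with a median of -1.13. The lowest was on the third probe of Seabream_2006-01-03-CL3946Contig1, at 8.56, 8.13 and 7.06 on the control diet and 4.03, 4.36 and 5.82 on the EOs-supplemented diet, beside a mean of -2.36 over its kept probes. Seabream_2006-01-03-CL1597Contig1 (-2.07), Mackenzie-051508-Contig308 (-1.998), cDN12P0001J18.F.ab1 (-1.91) and cDN01P0004P12.F.ab1 (-1.82) likewise had a dim probe that read lower still. Not every left-out probe did so. That of Seabream_2006-01-03-CL3134Contig1 was at -1.19, beside -1.41 over its kept probes, and others with weaker or opposite differences follow below. Where a probe was not well above background its level is only a bound, and these probes were not counted in the values above.

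In a group of 3 of the 14 probes, chosen after their values were seen, control pool 2 was far below the other control pools. On the left-out probe of cDN07P0006H22.F.ab1 the control levels were 8.69, 3.54 and 8.31 and the EOs levels 7.35, 7.12 and 7.59, which gave a difference of 0.51. Without control pool 2 the difference was -1.15, a value that leaving out the lowest control pool can only make more negative. The left-out probe of Contig2234, at 11.00, 7.98 and 10.46 against 10.03, 9.71 and 10.20, moved from 0.17 to -0.75, and that of cDN02P0001I09.F.ab1, at 6.28, 4.27 and 6.36 against 5.44, 5.05 and 5.34, moved from -0.36 to -1.05. Control pool 2 was below the mean of the other control pools by 4.96, 2.75 and 2.05 on these 3 probes, in that order, against at most 0.82, 0.39 and 0.06 on the kept probes of the same transcripts. The rule limits such a drop on kept probes, since it holds control pool 2 well above background and above every EOs pool. This contrast is therefore a description only, and the cause of the low values was not tested. The remaining probe with a higher level on the EOs-supplemented diet, that of Contig2057 (1.35), was well above background in 0 control pools and 1 EOs pool.

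**Figure D3:**
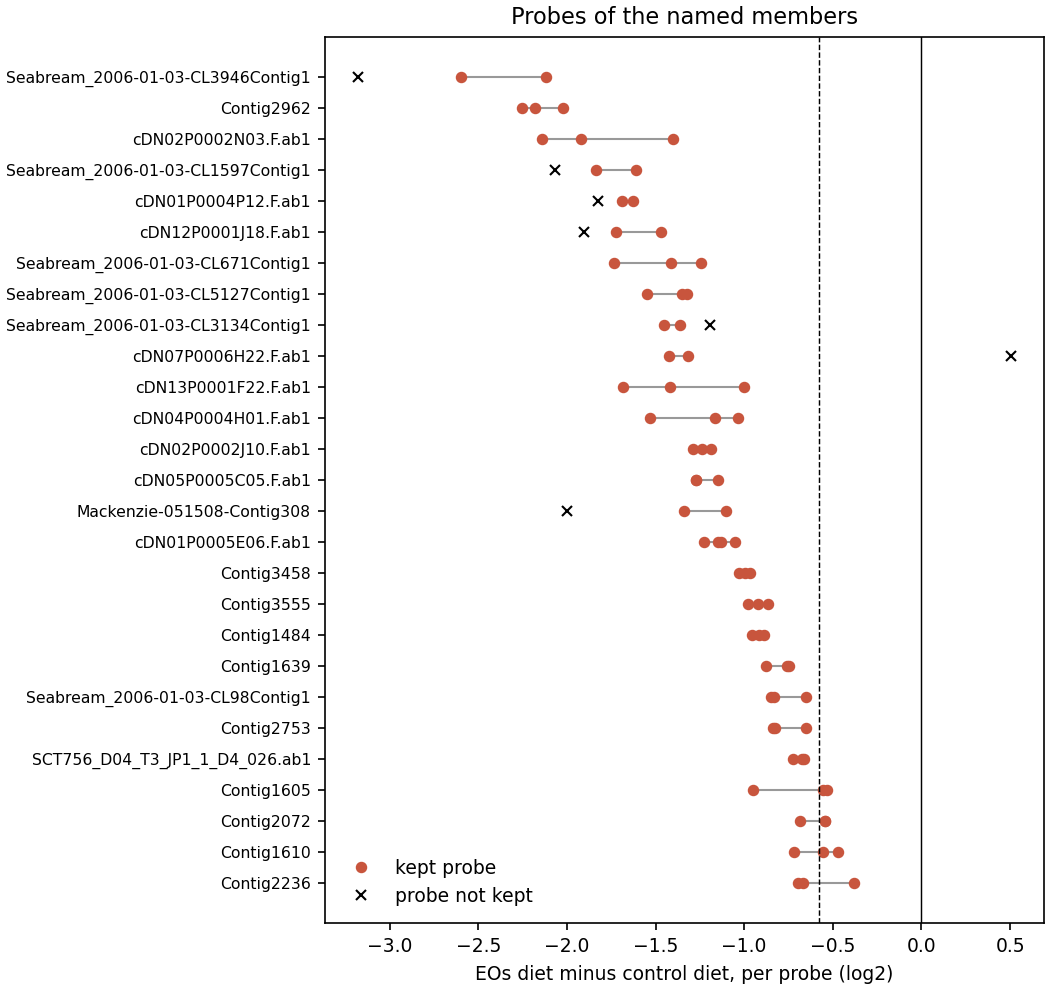
Difference between diets (x axis, EOs minus control, log2) of every probe of the 27 named transcripts, kept probes in red joined by a line and probes left out by the background filter as crosses, with 0 as a solid and -0.58 as a dashed line. Kept probes of a transcript lie at most 0.74 apart, in cDN02P0002N03.F.ab1. The one cross to the right of 0 is the probe of cDN07P0006H22.F.ab1 with a low value in control pool 2.

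The pools of a diet did not contribute evenly. The mean level over the 117 transcripts was 10.12, 9.85 and 10.00 in control pools 1, 2 and 3 and 9.16, 8.89 and 9.19 in EOs pools 1, 2 and 3. EOs pool 2 was the lowest EOs pool in 80 of the 117 (68.4%), beside 46.8% of all 5110 transcripts, and control pool 1 was the highest control pool in 65 (55.6%), beside 34.9%. Control pool 2 was the lowest control pool in 65 (55.6%), beside 44.6%. Both pools numbered 2 were the lowest of their diet in 51 of the 117 (43.6%), beside 25.8% of all 5110.

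Taken pool by pool, the median difference was nearest to 0 between EOs pool 3 and control pool 2, -0.59, and farthest between EOs pool 2 and control pool 1, -1.12. All 9 pairs of an EOs pool and a control pool had a median under -0.58, where the medians of all 5110 transcripts ran from -0.11 to 0.06. The rule lets no EOs pool reach a control pool on a kept probe, so that all 9 had to lie below 0. Without EOs pool 2, 98 of the 117 still met the rule and the median difference of the 117 was -0.76. The others missed the limit of -0.58, since leaving out a pool brings no overlap on a kept probe. The part of EOs pool 2 depended on the processing. It was the lowest EOs pool in 52.1% of the transcripts with the 75th percentile (35.7% of all) and in 67.5% with the median (49.4% of all). On the deposited log2 values, quantile-normalized like the main values, it was the lowest in 44.4% (33.3% of all). EOs pool 1 was about as often the lowest there (45.3%, beside 47.8% of all). Control pool 2 was the lowest control pool in 34.2% with the 75th percentile (31.6% of all), where control pool 3 was the lowest in 46.2% (44.7% of all).

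**Figure D4:**
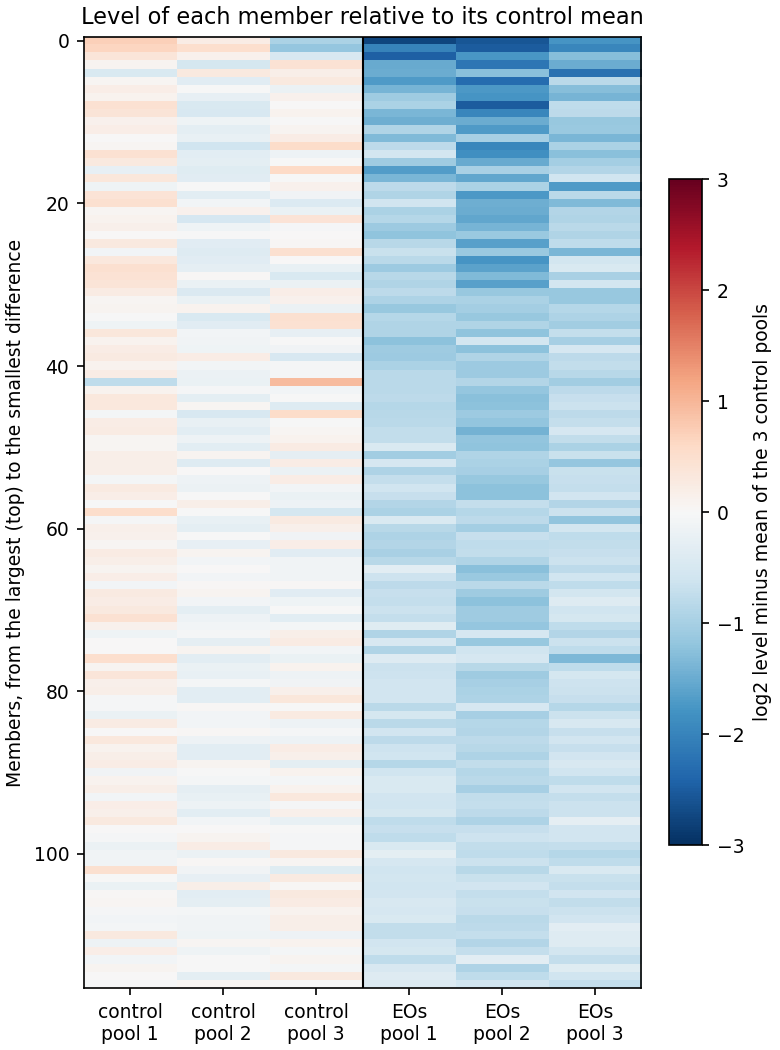
Level of each of the 117 transcripts (rows, from the largest to the smallest difference) in each of the 6 pools (columns), as log2 level minus the transcript's mean over the 3 control pools, blue for lower and red for higher. The EOs columns are blue throughout, darkest in EOs pool 2 for many rows, and the reddest control cell, in control pool 3, is Contig1484.

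Deviations from the mean of a pool's own diet leave out the mean difference between diets. The rule's demand of no overlap still acts on them, so that they are not independent of the choice of the set. Over the 6 arrays the median correlation of these deviations between pairs of the 117 was 0.31 (6786 pairs, 66.8% above 0), beside 0.05 (52.9% above 0) between pairs of all 5110. Their first component held 49.8% of the variation within diets, beside 36.8%. These are descriptions, since all transcripts share the 6 arrays.

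The names were grouped by how they begin, and the labels do not say what these beginnings stand for. Of the 117, 47 began with cDN (40.2%, beside 41.2% of all 5110) and 34 with Contig (29.1%, beside 30.3%). Another 31 began with Seabream (26.5%, beside 24.1%), 4 with SCT (3.42%, beside 3.13%) and 1 with Mackenzie (0.855%, beside 1.17%). These shares were near those of all transcripts. Several names may belong to 1 gene, which could not be checked without sequences.

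How many of the 117 met the rule depended on how the arrays were made comparable. With the 75th percentile scaling all 117 were still lower on the EOs-supplemented diet, where 40% of all transcripts were, but 66 met the whole rule and the median difference was -0.68. The median scaling kept 104, normexp background correction 74 and the deposited log2 values 62, and 48 met the rule under all 4 of these as well. Among the 15 with the largest difference 10 did so, and Seabream_2006-01-03-CL3946Contig1 missed it under the 75th percentile, where its difference was -1.99 and a probe overlapped. Before any scaling 116 of the 117 had a lower mean on the EOs-supplemented diet (median -0.49, beside 0.28 for all 5110), and the diets did not overlap in 53 of the 117, where 2.41% of all 5110 transcripts were lower without overlap. In 56 of the 64 others control pool 3, the array with the lowest signals, was the lowest control pool. It was so in 78.6% of the 117 and in 71.3% of all transcripts. The same intensities chose the set, so that its contrasts with all transcripts under another scaling, or none, are no independent support.

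The count was split by level. With all 5110 transcripts ranked by level into 10 classes of equal size, 67 of the set lay in the lower 5 classes, of which 23 (34.3%) met the rule with the 75th percentile, and 50 lay in the upper 5, of which 43 (86%) did. The scaling also moved the values of all transcripts by level: the median difference with the 75th percentile ran from 0.38 in the lowest class to -0.09 in the highest, and with quantile normalization from -0.14 to 0.07. Set against the median of the same class, the median difference of the 117 was -0.80 in place of -0.82. The part of this shift in the differences of single transcripts was not tested.

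**Figure D5:**
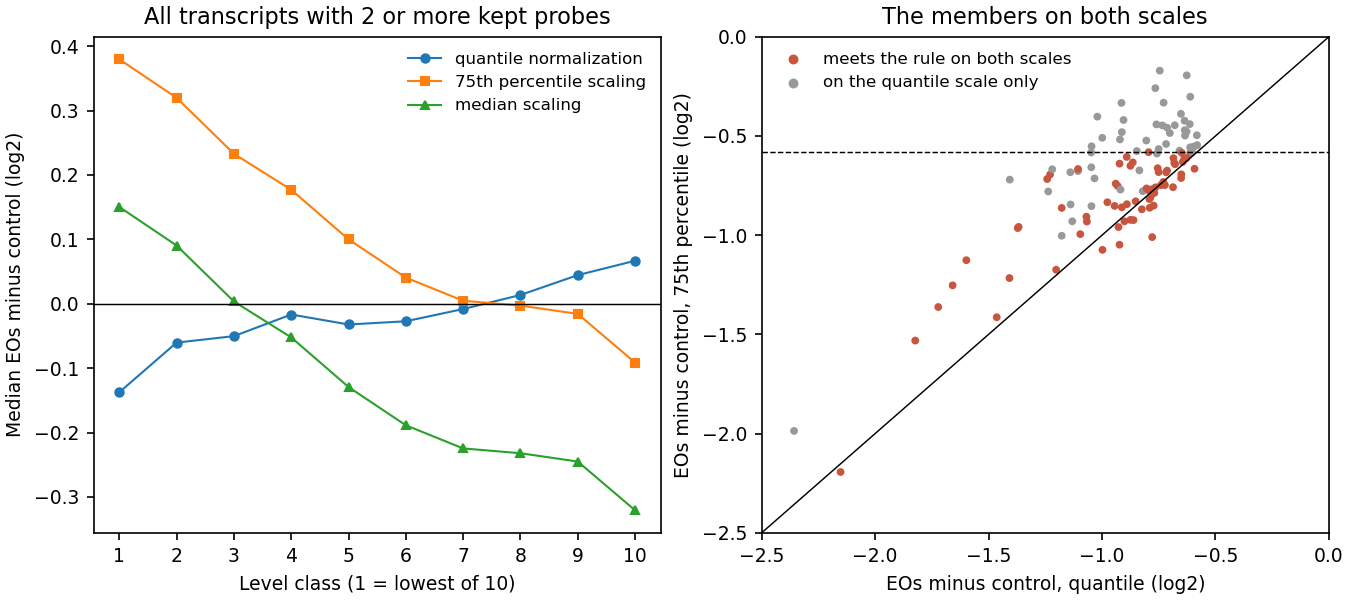
Left, median difference between diets (y axis, EOs minus control, log2) of all 5110 transcripts by level class (x axis, 1 is the lowest of 10) under 3 scalings of the arrays. Right, difference of the 117 transcripts after quantile normalization (x axis) and after scaling to the 75th percentile (y axis), in red where the rule was met on both, with the limit of -0.58 as a dashed line; all points lie below 0, and 66 are red.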

How the data were processed

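The authors extracted, per the file headers with Agilent Feature Extraction 10.7.3.1, an intensity for each spot of each 1-colour array, background-subtracted and detrended but not normalized between arrays. They also deposited a table of log2 values, which came out as log2 background-subtracted intensities (to within 5e-09) and was used as an alternative. Control spots (leaving 43803 spots, 28793 probes) and spots with an outlier flag (58 to 340 per array) were left out, log2 values were quantile-normalized, spots averaged per probe, and the kept probes of a transcript averaged. A kept probe with a missing value was dropped. The whole table was fitted with limma 3.58.1 (lmFit, eBayes, two-sided, Benjamini-Hochberg) in R 4.3.3, tested on simulated data. Other steps used Python 3.11.15, pandas 2.3.3, numpy 2.4.6 and matplotlib 3.10.9. No block for slide or scan day was fitted.

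The members and lists were chosen with earlier results of these data known. Named are the 15 transcripts with the largest difference, the 5 with the most kept probes (1 with 4, and 4 taken by name from the 100 with 3), the 5 with the highest control level, and the 3 just inside and outside the limit. Named outside this rule, after their values were seen, are Contig2234, cDN02P0001I09.F.ab1 and Contig2057. Alternatives were the 75th percentile (the paper's scaling), the median, normexp (offset 50, on the median signal), the deposited log2 values and other filters. Further ones, on the quantile-normalized values, were array weights, a variance trend, an unpaired t-test, a pool-number block and leaving out each pool. Some were chosen after seeing the data: the background flag of unflagged spots alone, differences relative to the same level, and pool order under other scalings. The pool numbers were not taken to pair the samples.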

Additional observations from a re-analysis of the deposited data

How the results depend on the processing

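All 117 transcripts, which were chosen from the same intensities, had a difference below 0 under every scaling and filter that was run. Leaving out a pool could not turn the sign, because the rule lets no EOs pool reach a control pool on a kept probe. Their number did not stay: 117 met the rule as given, 72 with the 75th percentile scaling, 241 with the median scaling, 64 on the deposited log2 values, and 32 with a limit of -1, whose median difference was -1.19 in place of -0.82. Of the 117 themselves, 66 met it with the 75th percentile, 74 with normexp, 62 on the deposited log2 values and 32 with the limit of -1. Leaving out 1 pool gave 124 to 267 transcripts (267 without control pool 2, 190 without EOs pool 3), 98 to 114 of the 117, and median differences of -0.89 to -0.76. The 415 transcripts lower at an unadjusted p under 0.05 in limma became 209 on the deposited log2 values, 623 with array weights and 223 to 511 without 1 pool (223 without control pool 1, 237 without EOs pool 2). Those higher were 281 on the main values, 475 on the deposited log2 values and 497 with array weights. After adjustment 0 were lower, also without any 1 pool, but 4 were with the looser background filter (well above background on 0.5 of the spots of 3 arrays), 4 with no filter and 29 with array weights. The causes were not tested. With pools of the same number as a block, 449 were lower at an unadjusted p and 0 after adjustment. Deviations of same-numbered pools correlated at 0.16, 0.37 and -0.07, not all above 0.1, so that a shared pairing was not established. For the 27 named transcripts, 0 of the 243 values under scalings and filters changed sign, and 30 of 405, pool omissions included, moved by more than the spread between pools. With 3 arrays per diet, differences near the limit cannot be ordered, and in the lowest level class the 75th percentile moved the median difference of all transcripts from -0.14 to 0.38.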
